A study of Mus musculus with 249 samples.

Results

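The Esrrb locus was described here as the stretch of mouse chromosome 12 from 86.3 to 89.3 Mb (mm9), with the gene body of Esrrb in the windows from 87.68 to 87.88 Mb. Its windows were taken by position, with no measured value, and the stretch holds 74 whole windows of 40 kb out of 3032 on chromosome 12 and 68162 in the series, and 5 of the 74 cover the gene. Linkage was read from 71 of the 74 windows, those positive in at least 25 of the 249 libraries, as were all 5 gene windows. Esrrb encodes an orphan nuclear receptor that binds DNA as a monomer and takes part in the transcription network of naive pluripotent cells, together with the products of Sox2, Nanog, Pou5f1 and Klf4. In mouse embryonic stem cells the gene is known to be transcribed and to be a target of these factors. The deposited table holds no expression value, so neither the activity of the gene nor the identity of the cells could be checked with markers here.

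The data are multiplex genome architecture mapping (GAM) libraries from mouse embryonic stem (ES) cells of the line 46C, which carries a GFP reporter in Sox1, is of strain 129/Ola and was grown in serum with LIF and then moved to a serum-free medium before harvest. In GAM, loci that lie close together in the nucleus tend to be cut into the same thin nuclear slice, so that the rate at which windows are found in the same library measures their proximity. The titles give 4 nuclear profiles per tube (the series text gives a lower average), a window is 1 (positive) or 0 in a library, and no read counts were at hand, so the depth of the libraries is unknown. All 249 libraries share the cell line and the medium and passed the quality control of the authors, and they come from 11 experiments on whole genome amplification and sample handling, each a set of libraries of its own, so an experiment and anything else that differed between these sets cannot be told apart. By the titles, the groups were amplification reagent protocols A (10 libraries), B (11) and C (10), proteinase K volumes of 1 µl (5) and 2 µl (6), libraries frozen after the lysis incubation (10) or unfrozen (11), frozen early (12) or late (11), 25 (3), 23 (5) or 20 (4) PCR cycles, cresyl violet stain (16) or none (10), a large (11) or small (12) kit, the unstained arms of the propidium iodide (20), SYBR Gold (10) and eosin (18) tests, and a full collection (54). Titles were followed where the protocol texts differ from them, as they do on staining in the SYBR Gold test and on the volumes of proteinase K. Nothing in the labels says that the libraries came from separate cultures, so the p-values below measure the spread between libraries. On average 18.2% ± 7.69 (SD, n = 249 libraries) of all windows were positive, from 3.4% to 45.2%.

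Esrrb (ENSMUSG00000021255.10) lies on the plus strand at chr12:87702067-87862578. The longest annotated transcript, Esrrb-001, starts at 87702067 in the first gene window. Another 3 transcripts start together at 87762594, which is 60527 bases further downstream and in the third gene window. The second gene window, chr12:87720001-87760000, holds no annotated exon and lies within the first intron of Esrrb-001. The fifth, chr12:87840001-87880000, holds 11 distinct exons of the gene. The 250 bases before each of these start sites are printed because they mark where transcription can begin in windows 80 kb apart, whose values are given separately below. Capitals mark CpG dinucleotides, and both sequences run 5′ to 3′ on the plus strand of mm9.
Esrrb start region of the longest transcript, chr12:87701817-87702066: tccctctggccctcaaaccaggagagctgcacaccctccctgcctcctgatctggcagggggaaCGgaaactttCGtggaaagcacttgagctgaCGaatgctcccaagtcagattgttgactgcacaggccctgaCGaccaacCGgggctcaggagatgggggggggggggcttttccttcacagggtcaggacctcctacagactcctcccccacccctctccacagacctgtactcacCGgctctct
Esrrb start region shared by 3 transcripts, chr12:87762344-87762593: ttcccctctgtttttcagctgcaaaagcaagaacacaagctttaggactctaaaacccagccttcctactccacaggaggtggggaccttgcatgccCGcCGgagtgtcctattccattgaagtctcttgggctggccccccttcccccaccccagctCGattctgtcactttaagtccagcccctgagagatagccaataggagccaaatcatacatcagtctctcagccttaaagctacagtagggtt
Together with their first transcribed bases, both sequences are identical to Esrrb entries of the RefSeq promoter table (GRCm38.p6). The upstream start region has 60.8% GC and 6 CpG, and the downstream one 52% GC and 3 CpG, beside medians of 52.4% and 6 over the same 250 bases of 32851 RefSeq promoters. The letters AAGGTCA, a half-site that Esrrb itself can bind, were searched on both strands and occur in neither sequence. They occur in 4.08% of the RefSeq promoters.

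The gene was detected more often than most of chromosome 12. The windows of the gene were positive, in order of transcription, in 58, 54, 66, 67 and 70 of the 249 libraries. The 3 windows from the downstream start site onward were thus seen more often than the 2 before it. The Wilson 95% intervals were 17% to 27.2% of libraries for the lowest window and 22.9% to 34% for the highest. Both windows were scored in the same libraries, so the overlap of these intervals does not judge their difference. Both were positive in 35 libraries, only the lowest in 19 and only the highest in 35, and the difference was not tested. A library was positive in 25.3% of the gene windows on average and in 20.4% of the other 2832 usable windows of the chromosome. The difference was 4.86 percentage points ± 1.94 (SE over 249 libraries), with p = 0.0127 in a two-sided sign-flip permutation test, and it was above 0 in 93 libraries and below 0 in 156, since most libraries held no gene window at all. Among 2741 runs of 5 adjacent usable windows on chromosome 12, the mean of 63 libraries for the gene stood at the 94.6th percentile (mean over runs 51 ± 7.34 SD).

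Base composition also differed between the gene and the rest of the chromosome. The gene windows have 48.6% GC on average, and the windows of chromosome 12 outside the locus have 41.5%. Over the 2837 usable windows of the chromosome, GC content and the number of positive libraries had a Pearson correlation of 0.333, a description over windows that share libraries. Against the 145 windows within 1 percentage point of the GC content of the gene, the excess was 2.74 points ± 1.90 (p = 0.152, sign-flip permutation test), and the call was lost. The part of base composition in the excess was not tested.

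The flanks of the gene were detected at similar rates. The 34 usable upstream windows of the locus were positive in 60 ± 6.76 (SD) libraries, the gene windows in 63 ± 6.71 and the 32 downstream windows in 60.5 ± 8.78. Over the whole locus, libraries were positive in 24.3% of windows against 20.4% elsewhere on the chromosome, a difference of 3.93 points ± 1.22 (p = 0.00148, adjusted over both comparisons p = 0.00296). With GC-matched windows it was 3.05 points ± 1.22 (p = 0.0133). The window found most often in the locus, chr12:86400001-86440000, was positive in 73 libraries and holds parts of Ylpm1 and Prox2, which encodes a homeobox protein. The upstream neighbours Fos and Jdp2, both encoding members of the AP-1 family of transcription factors, lie in windows positive in 71 and in 69 and 63 libraries. The Tgfb3 windows, which hold the gene of a TGF-beta ligand, were positive in 52 and 54.

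At its distal end the locus runs into a cluster of near-identical genes. These include BB287469, Oog1 (oogenesin), Gm2075 and Gm2042, and reads from such copies can be lost or misplaced in mapping. The window with the fewest positive libraries among those used, chr12:89160001-89200000, lies there with 34. The 3 windows that were too rarely detected to be used lie in the same cluster, with 20, 0 and 11 positive libraries. The window with 0 has no called base in mm9, so its value says nothing about the cells. The plot of detection by window shows these low windows, beside other windows of the cluster that were positive in 44 to 70 libraries.

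**Figure D1:**
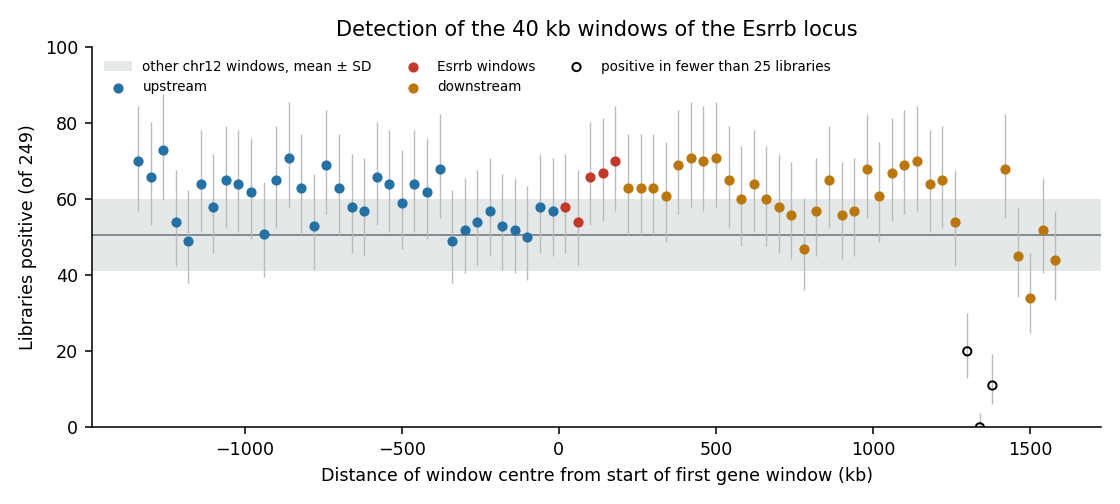
Number of libraries (of 249) positive for each 40 kb window of the locus against the distance from the start of the first Esrrb window in kb, with Wilson 95% intervals; the grey band is the mean ± SD of the other usable windows of chromosome 12. The Esrrb windows lie between 54 and 70 libraries, and the 3 open circles at 20, 0 and 11 are the windows left out in the multigene cluster.

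Most libraries missed the gene, as they did other runs of 5 windows, and when it was caught it was often caught in part. No gene window was positive in 140 libraries, 1 in 23, 2 in 26, 3 in 23, 4 in 14 and all 5 in 23. The means over chromosome 12 runs were 156, 25.1, 19.4, 17.3, 15.8 and 15.2 libraries. The gene was thus missed less often than most runs (6.86th percentile for the count with no window), and partial capture was common to the gene and the other runs. Of the 109 libraries with at least 1 gene window, the positive windows formed a single unbroken run in 77 and had a gap in 32. A run that began at the first window and stopped inside the gene was seen in 12 libraries, and a run that began inside and reached the last window in 21. All 5 windows were positive in 21.1% of the 109 libraries (Wilson 95% interval, 14.5% to 29.7%), while the mean over chromosome 12 runs of equal length was 16.3%. The difference of 4.76 points ± 3.87 (jackknife SE, 95% interval -2.82 to 12.3) did not pass (p = 0.222, sign-flip permutation test on jackknife pseudo-values). It was 0.587 points ± 4.47 when at least 4 of the 5 windows counted as whole, and 2.07 without the reagent experiment. With several nuclear profiles and both alleles in a tube, a gap does not show that a single DNA fibre was cut more than once.

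Detection of the gene windows relative to the chromosome did not differ between experiments beyond the spread of libraries. The presence of at least 1 gene window, given next, was not tested between experiments. At least 1 gene window was positive in 30.0% of the SYBR Gold libraries (3 of 10) and in 66.7% of the PCR cycle libraries (8 of 12), the lowest and the highest experiment. The full collection held the gene in 17 of 54 libraries, or 31.5%. The gene-minus-chromosome difference averaged from -2.06 points (kit experiment) to 11.4 points (freezing after incubation), and an F statistic over the 11 experiments was 0.403 (p = 0.946, permutation test over 249 libraries). The plot of libraries by number of gene windows and by experiment shows how widely the intervals overlap.

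**Figure D2:**
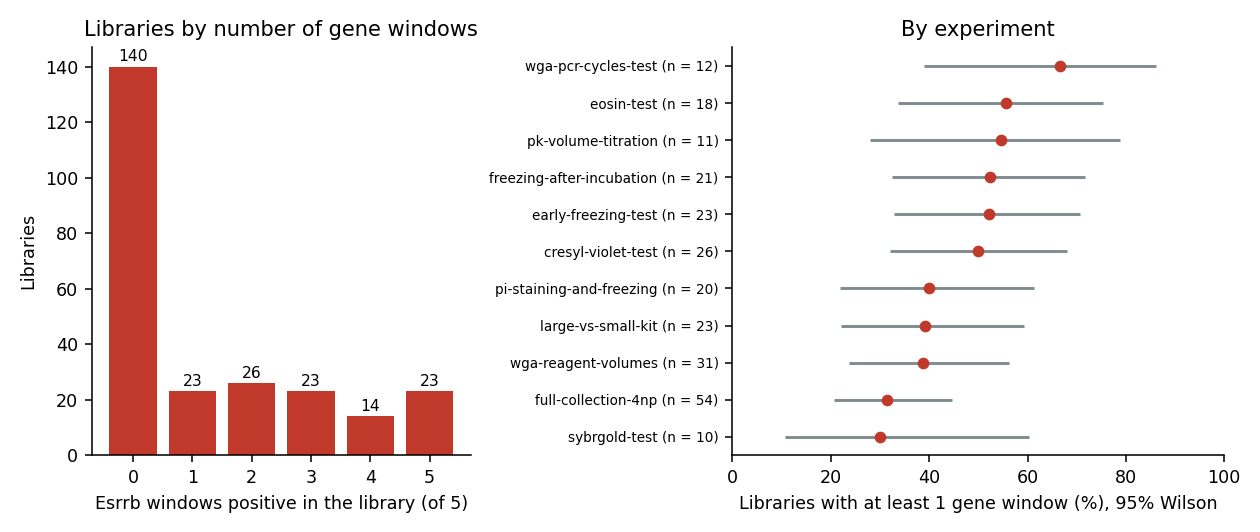
Left, number of libraries by how many of the 5 Esrrb windows were positive; right, percent of libraries with at least 1 positive Esrrb window in each experiment, with Wilson 95% intervals. The 140 libraries without the gene form the largest class, and the intervals of all 11 experiments include 40%.

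Within experiments, 11 pairs of protocol arms were compared for the presence of the gene (Fisher's exact test) and for the detection of the locus relative to the rest of the chromosome (permutation test, exact where an arm had under 10 libraries). None of the 22 two-sided tests passed after Benjamini-Hochberg adjustment (lowest adjusted p = 0.0957), and 4 had an unadjusted p below 0.05. The gene was present in 5 of 5 libraries with 23 PCR cycles and in 1 of 4 with 20 (exact p = 0.0476, adjusted p = 0.262). Presence is not relative to the chromosome, and 40.9% of other chromosome 12 windows were positive with 23 cycles and 15.1% with 20. Overall coverage was 22.3% ± 3.31 (SD) and 14.1% ± 4.18 in these arms, and its part in the presence of the gene was not tested. Libraries of protocol A held the locus less often than the rest of the chromosome (mean difference -9.72 points) and those of protocol C more often (9.42 points, p = 0.00435, permutation test, adjusted p = 0.0957). Protocol B lay between them (1.27 points, p = 0.0456 against protocol A, permutation test, adjusted p = 0.262). Libraries frozen early and late differed in the same measure (8.92 and -7.16 points, p = 0.0195, permutation test, adjusted p = 0.215). The freezing arms also differed in overall coverage, which was 28% ± 8.23 (SD) in early and 16.8% ± 7.34 in late frozen libraries. The part of coverage in this difference of the whole locus was not tested. A test of single windows within tertiles of coverage is given with the windows below.

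Single windows of the locus were then compared between arms with Fisher's exact test, and 0 windows passed after adjustment in each of 4 comparisons, in the locus and in the genome (0% of all windows tested). At an unadjusted p below 0.05, 13 of 72 locus windows differed between cresyl violet and unstained libraries, with a background of 2.61% of windows. For early against late freezing the count was 13 of 71, with a background of 4.69%. For the kits it was 4 of 68, with a background of 3.25%, and for the full collection against all others 2 of 73, with a background of 6.59%. Stratified by tertile of library coverage (Cochran-Mantel-Haenszel test, unadjusted), the count for cresyl violet was 5 of 72, beside 0.962% of all windows. It was 0 of 71 for freezing (0.707%), 0 of 68 for the kits (0.637%) and 0 of 73 for the full collection (3.28%). With 23 libraries in arms that differ in coverage, the stratified freezing test had few libraries to compare, and a lost call does not show that the arms were alike. Neighbouring windows share libraries and are not independent. None of these windows was a gene window. The window with the lowest p for cresyl violet, chr12:88720001-88760000, overlaps part of Sptlc2, which encodes a subunit of serine palmitoyltransferase, and was found in 3 of the 16 stained libraries and 8 of the 10 without stain (p = 0.00398, Fisher's exact test, adjusted p = 1, stratified p = 0.0467). For freezing, the neighbouring windows of Flvcr2 (Mfsd7c in the annotation), which encodes a membrane transporter, and Ttll5, which encodes a tubulin polyglutamylase, were among those with the lowest p and were each found in 7 of the 12 early and 0 of the 11 late frozen libraries (p = 0.00458, Fisher's exact test, adjusted p = 0.804, stratified p = 0.0569). A further window away from them, chr12:88560001-88600000, had the same counts and the same p (stratified p = 0.0872, Cochran-Mantel-Haenszel test). Sptlc2, Flvcr2 and Ttll5 were named here after their values were seen.

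Linkage within the gene was not distinguishable from that of other windows at the same distances. Linkage was measured as D′, the normalized linkage, which is the rate at which a pair of windows is found together minus the rate for independent windows, divided by the largest value it could take. The 10 pairs of gene windows had a mean D′ of 0.579 ± 0.046 (jackknife SE over libraries), and chromosome 12 pairs at equal distances 0.564. The difference was 0.014 ± 0.045, with a 95% interval from -0.074 to 0.103 (p = 0.548, sign-flip permutation test, adjusted over 6 tests p = 0.918). Among 2741 blocks of 5 windows on the chromosome the gene stood at the 60.1st percentile. Relative to 1137 windows detected about as often as the gene, whose equal-distance pairs had a D′ of 0.578, the difference was 0.0011 ± 0.0455.

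All 10 pairs were found together more often than independent windows would be. The adjacent windows at the 3′ end, detected in 67 and 70 libraries, were together in 51 where 18.8 were expected for independent windows, a D′ of 0.668 ± 0.068. The adjacent windows at the 5′ end, detected in 58 and 54 libraries, were together in 35 where 12.6 were expected, a D′ of 0.541 ± 0.079, the lowest of the 4 adjacent pairs. The mean of adjacent windows on the chromosome was 0.619 ± 0.081 (SD), so that both lay within 1 SD of it. The first window and the last, 160 kb apart, were together in 41 libraries (16.3 expected), a D′ of 0.592 ± 0.078 against a mean of 0.492 at this distance. The window of the upstream start site and that of the downstream start site were together in 38 libraries, a D′ of 0.531 ± 0.078 against 0.549. For each of the 10 pairs the 95% interval of the difference from its equal-distance mean includes 0.

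Linkage of the gene to its flanks was also close to that of the chromosome. The 5 gene windows and the 10 windows upstream, up to 400 kb away, which hold Ift43 (1700019E19Rik, an intraflagellar transport gene) and Gpatch2l (1700020O03Rik), had a mean D′ of 0.435 over 50 pairs, against 0.449 at equal distances. The difference was -0.015 ± 0.038 (95% interval -0.089 to 0.059, p = 0.726, sign-flip permutation test). The 10 windows downstream, with Vash1 (vasohibin, an inhibitor of angiogenesis that acts as a tubulin carboxypeptidase) and Angel1, had 0.425 against 0.450, a difference of -0.024 ± 0.030 (-0.083 to 0.034, p = 0.568). The upstream minus the downstream difference was 0.0095 ± 0.0360 (-0.061 to 0.080, p = 0.918). Pairs that span the gene, an upstream with a downstream window, had 0.376 against 0.377, a difference of -0.0015 ± 0.0327 (-0.066 to 0.063, p = 0.796). Adjusted over the 6 tests, each p was 0.918. Each of these intervals includes 0, and together they run from -0.089 to 0.080.

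**Figure D3:**
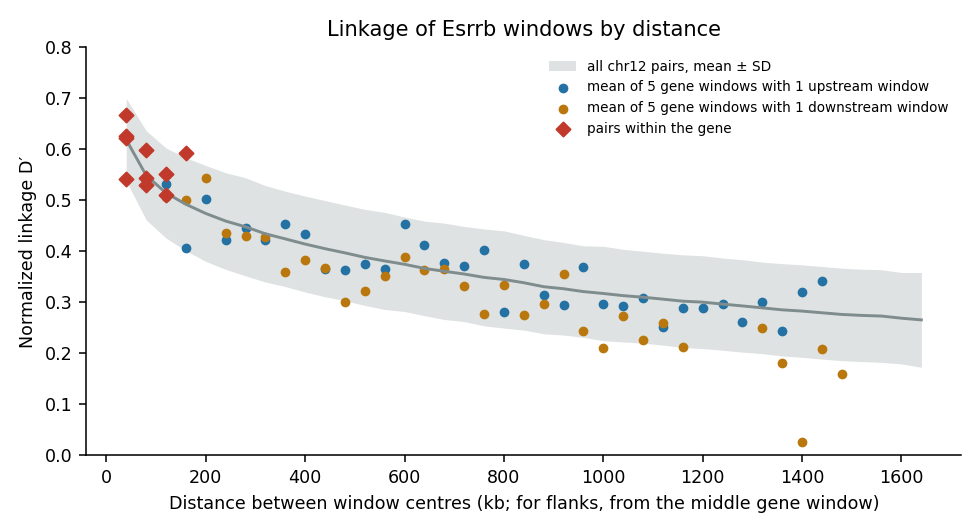
Normalized linkage D′ against distance in kb. Red diamonds are the 10 pairs within Esrrb, dots are the mean D′ of the 5 gene windows with each flanking window placed by the distance to the middle gene window, and the grey line and band are the mean ± SD of all usable chromosome 12 pairs. The pairs within the gene lie between 0.511 and 0.668, around the grey line, and the downstream dots fall below it at the far end.

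Further out, most downstream windows lay below the chromosome mean and the upstream windows on either side of it. Of the 34 upstream partner windows, 15 had a mean D′ with the gene above the equal-distance mean and 19 below. Of the 32 downstream windows, 5 were above and 27 below, and over all 340 pairs of a gene window within the locus 60.9% had a z-score below 0, where 50.8% of all chromosome 12 pairs up to 4 Mb did. The z-score gives D′ in SDs from the mean of chromosome 12 pairs at the same distance. No window had a 95% interval that excludes 0. The downstream windows beyond 400 kb had a mean D′ of 0.269 with the gene against 0.328, a difference of -0.059 ± 0.036 (95% interval -0.130 to 0.012). In the 9 usable windows of the multigene cluster the difference was -0.095 ± 0.049 (-0.191 to 0.0013), and in the 13 windows before the cluster -0.034 ± 0.038 (-0.109 to 0.041). The far upstream windows, with Fos, Jdp2 and Batf, gave 0.0027 ± 0.0353. These bands were described after their values were seen, and were not tested.

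Among the named neighbours, the mean D′ with the gene lay between 0.281 and 0.502. It was 0.369 for the Fos window, 0.374 and 0.281 for those of Jdp2, and 0.402 and 0.371 for those of Batf. The windows of Tgfb3 gave 0.433 and 0.454, those of Gpatch2l 0.502 and 0.406, and downstream those of Vash1 0.435, of Angel1 0.430 and of Irf2bpl (6430527G18Rik, a gene for a nuclear zinc finger protein) 0.367. The largest departures from the equal-distance means among these were -0.092 in a Gpatch2l window and -0.063 in a Jdp2 window, both with intervals that include 0.

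**Figure D4:**
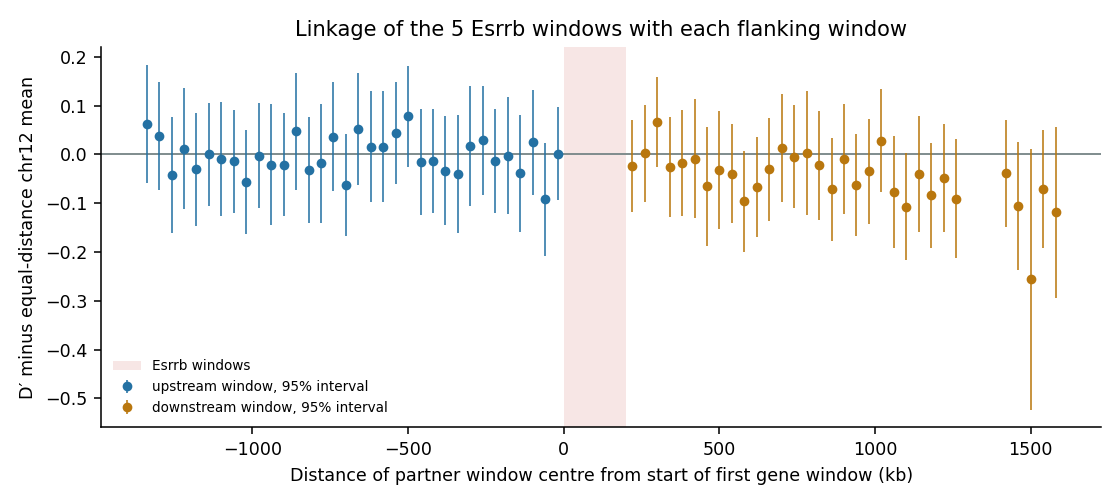
Difference between the mean D′ of the 5 Esrrb windows with each flanking window and the chromosome 12 mean at equal distances, against the distance from the start of the first gene window in kb, with jackknife 95% intervals. Upstream dots scatter around 0 (15 of 34 above), downstream dots lie mostly below it (27 of 32), and every interval includes 0.

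Of 310 pairs of a gene window with a window of the locus at least 200 kb away, none had a z-score of 2 or more. The highest z-score was 1.54, for the first gene window with chr12:86320001-86360000, which holds parts of Fcf1 (a ribosome biogenesis factor) and Ylpm1, counting each partner window once. The windows were together in 34 libraries where 16.3 were expected, a D′ of 0.424 ± 0.082 at 1360 kb. The next partners of the first gene window were the Erg28 (0610007P14Rik) and Ttll5 window at 520 kb (D′ 0.525 ± 0.076, z-score 1.46), an intergenic window 280 kb downstream (0.585 ± 0.076, 1.42) and the Fos window at 880 kb (0.445 ± 0.082, 1.24). The last gene window and a Batf window 800 kb upstream had a D′ of 0.463 ± 0.082 and a z-score of 1.24, Batf being a further AP-1 family gene. For all 5 the 95% interval of the difference from the equal-distance mean includes 0. Of these 5 pairs 4 involved the first gene window, which holds the upstream start site.

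With each partner window counted once, the 3 lowest pairs all ended in the multigene cluster. The second gene window and chr12:89240001-89280000 were together in 8 libraries where 9.54 were expected, a D′ of -0.162 ± 0.255 and a z-score of -4.81. The third gene window and chr12:89160001-89200000 gave -0.112 ± 0.266 (z-score -4.36), and the second gene window and chr12:89120001-89160000 gave 0.064 ± 0.077 (z-score -2.42). The first 2 rest on partners positive in 44 and 34 libraries, and the intervals of their differences include 0, while that of the last pair, -0.370 to -0.069, does not. Uncertain mapping of the near-identical copies could not be told apart from low linkage here.

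Over all distances up to 4 Mb, 8 of 915 pairs with a gene window (0.874%) had a z-score of at least 2, beside 2.56% of the 269540 pairs of chromosome 12, and 28 (3.06%) had a z-score of -2 or less, beside 1.89%. Of the 28, 11 had their other end in the locus. The 5 gene windows contributed unequally. Of the 28 low pairs 21 involved the exon-free second window, whose median z-score was -0.81, while the medians of the other 4 windows lay between -0.033 and 0.312. Of the 8 high pairs 6 involved the fourth gene window, chr12:87800001-87840000. Windows of 1 gene share libraries, so these counts are not independent of each other.

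All 8 high pairs had their other end outside the locus, in Nrxn3 at chr12:89961320-91573375, a very long gene for a synaptic adhesion protein, from 2400 to 3640 kb away. The highest joined the fourth gene window to chr12:91440001-91480000. They were positive in 67 and 43 libraries and together in 27 where 11.6 were expected, a D′ of 0.491 ± 0.096 against a mean of 0.194 (z-score 3.24). Over all 205 pairs of the 5 gene windows with Nrxn3 windows, 125 z-scores were above 0, 80 below, and the median was 0.30. The Nrxn3 windows were detected less often than the gene, in 45.1 libraries on average. On the other side, 6 of the 28 low pairs ended in Rgs6, a gene for a regulator of G-protein signalling at chr12:83717912-84259755, and over its 60 pairs with gene windows 17 z-scores were above 0 and 43 below (median -0.53). A further low pair, of the first gene window, ended in Nrxn3. The 95% intervals of the difference, which do not allow for the choice of extreme pairs, lay above 0 for all 8 high pairs and below 0 for 18 of the 28 low pairs. Nrxn3 and Rgs6 were named after their values were seen, their pairs were picked as extreme among many, and no test was made.

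The insulation score, the mean D′ across each window between the 10 windows on either side, had its nearest minima outside Esrrb. None of the 4 minima of the locus fell in a gene window, out of 128 minima on the chromosome (median spacing 840 kb). Over the gene windows the score was 0.426 ± 0.033 (jackknife SE), 0.435, 0.424, 0.422 and, in the last, 0.402 ± 0.029, beside a chromosome mean of 0.411 ± 0.048 (SD). Each SE belongs to 1 score alone, and the difference between the first and the last window was not tested. The nearest downstream minimum was the gene-free window chr12:87960001-88000000, between Esrrb and Vash1, with 0.373 ± 0.032. The nearest upstream minimum, chr12:87000001-87040000, holds part of Batf, 680 kb before the gene windows, with 0.375 ± 0.033. With squares of 200 kb, 6 minima were found in the locus, and 1 of the additional ones, chr12:87640001-87680000, adjoins the first gene window. A shallow minimum at chr12:88400001-88440000 (0.382 ± 0.035) holds Tmem63c and Ngb, the neuroglobin gene. The deepest, at chr12:88760001-88800000 (0.343 ± 0.039, 7.65th percentile of the chromosome), holds Alkbh1, which encodes a DNA and RNA demethylase, and Snw1, which encodes a splicing and transcription cofactor, just before the multigene cluster. The Batf and Alkbh1 minima were found within 80 kb in all 15 alternative settings run, the minimum downstream of Esrrb in 13 and the Ngb minimum in 8. The square of the Alkbh1 minimum reaches into the multigene cluster, where the score rose to 0.586 at chr12:89160001-89200000 (100th percentile of the chromosome). No setting left out the whole cluster, and the part of uncertain mapping in this minimum was not tested. The drop from the gene to its downstream minimum was not tested.

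**Figure D5:**
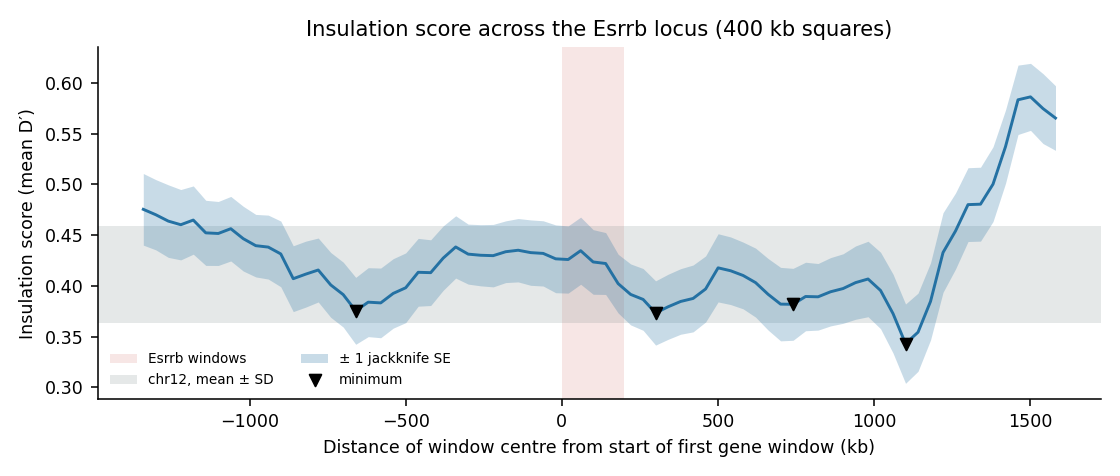
Insulation score (mean D′ in squares of 400 kb) against the distance from the start of the first Esrrb window in kb, with ± 1 jackknife SE (blue band), the chromosome 12 mean ± SD (grey band) and minima (triangles). The score is 0.426 at the first gene window and 0.402 at the last, and falls to 0.373 at the minimum 280 kb from the start of the first gene window.

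The linkage within Esrrb was set beside that of 13 other genes of the naive pluripotency network. For each, a block of 5 windows was centred on the gene and its mean D′ expressed as a z-score among all such blocks of their own chromosome. Esrrb had a z-score of 0.27, 4 of the 13 genes were higher, and 7 of 13 were above 0 (median 0.14). On a common scale of all 58014 autosomal blocks their median was 0.092, beside 0.022 over all blocks. Nanog, a homeobox gene, stood highest with a D′ of 0.694 and a z-score of 2.59. Pou5f1, which encodes the POU factor Oct4, had 0.576 and 0.16, and Sox2, which encodes an HMG-box factor, 0.547 and -0.52. Tcl1, a gene for a coactivator of AKT kinases on the same chromosome as Esrrb, was lowest with 0.524 and -0.82. Esrrb minus Nanog was -0.116 ± 0.060 (95% interval -0.234 to 0.0030, p = 0.0571, adjusted over 3 tests p = 0.171, sign-flip permutation test). Esrrb minus Sox2 was 0.032 ± 0.060 (-0.086 to 0.150, adjusted p = 0.654) and Esrrb minus Pou5f1 0.0027 ± 0.0620 (-0.119 to 0.124, adjusted p = 0.654). By detection, 1 of the 13 blocks, that of Nanog with 66.8 libraries on average, exceeded the 63 of Esrrb (median over the 13 genes 57.2). Of these genes only Esrrb and Nr5a2 are long enough to span most of such a block, so for the others it describes mainly the surroundings of the gene.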

How the data were processed

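Reads were mapped by the authors with Bowtie2 (version 2.1 per the labels) to mm9. They removed duplicates with Samtools and called each 40 kb window positive with GAMtools from 4 reads. The deposited score is 1 for a positive and 0 for any other window, in libraries that passed the quality control of the authors. Read counts were not at hand, so a 0 can be absence or too few reads, and intervals cover the sampling of libraries only. All 249 columns were matched to labels by library name, with 0 columns of no sample.

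D′, z-scores within chromosome 12 and distance (up to 4 Mb), and insulation were computed from windows positive in at least 25 libraries (Python 3.11.15, NumPy 2.4.6, SciPy 1.17.1). Errors are delete-one-library jackknife SEs. Tests were two-sided sign-flip permutations (100000 resamples) over libraries or jackknife pseudo-values, whose mean is corrected for bias, with Benjamini-Hochberg adjustment. The linkage and window tests were checked on simulated data. Sequence and annotation came from NCBIM37 (mm9) and GENCODE vM1, whose old symbols are given in brackets. The windows were taken by position, but the locus itself and the gene lists were chosen with earlier results of these data known. Genes were named by rule: neighbours of Esrrb, the partners of the 5 highest and 3 lowest pairs, insulation minima and the most and least detected windows, beside those said to be named later. Alternatives changed the minimum, reference, measure, libraries, squares and thresholds.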

Additional observations from a re-analysis of the deposited data

Results flagged for a closer look

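Among 18 combinations of a group of 4 to 10 libraries and a measure, 3 values lay far from the rest of their group, where chance nominally gives about 1 in 20 for continuous values. In the group frozen after the lysis incubation, replicate 5 was positive in 80% of the Esrrb windows. In the group with 20 PCR cycles, replicate 2 was positive in 40% and the other 3 libraries in none. In the group with 23 cycles, replicate 1 was positive in 100% of the gene windows. A library takes 1 of 6 values in this measure, so such gaps are coarse and the nominal rate need not hold.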

How the results depend on the processing

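The excess detection of the gene kept its direction and stayed past the threshold in 14 of 15 alternatives, from 4.26 to 5.77 points when each experiment was left out, and was 2.74 points, no longer past it, against windows of like GC content. The excess of the whole locus passed in all 16. None of the 105 linkage and capture values under alternatives had p below 0.05 (lowest 0.112), and 20 turned sign. With each experiment left out, the difference ranged from -0.018 to 0.037 within the gene, from -0.036 to 0.0042 upstream, from -0.051 to -0.012 downstream, from -0.010 to 0.025 for upstream minus downstream and from -0.040 to 0.016 over the gene. The sign turned within the gene without the propidium iodide or the reagent experiment, upstream without the PCR cycle experiment, for upstream minus downstream without the post-incubation freezing or the reagent experiment, and over the gene without any of 5 experiments (early freezing, eosin, kit, propidium iodide, PCR cycles). Within the gene it was -0.00038 after adjustment for library coverage and -0.0068 without libraries of scattered windows (neighbour share below 60%). Over the gene it was 0.0042 without libraries with a coverage below 5% or above 40% and 0.0069 without scattered libraries. Upstream minus downstream was -0.0055 with a correlation in place of D′ and -0.00078 without the extremes of coverage. In the 54 libraries of the full collection alone, an alternative chosen after seeing the data, the differences were 0.062 ± 0.113 within the gene, 0.022 ± 0.104 upstream, 0.097 ± 0.068 downstream, 0.148 ± 0.066 over the gene (p = 0.112, sign-flip permutation test) and -0.075 ± 0.108 for upstream minus downstream. The cause was not tested. The count of pairs with a high z-score was 32 at 1.5 (3.50% of gene pairs, 6.56% of all pairs), 1 at 3 (0.109% and 0.369%) and 11 with a minimum of 40 libraries (1.24% and 2.54%). The locus held 2 minima with squares of 600 kb or a prominence of 1 SD, and 6 with squares of 200 kb. The excess of whole capture was 3.06 points without scattered libraries and 2.07 to 6.59 with each experiment left out (2.07 without the reagent experiment, 2.83 without the full collection). No paired analysis was possible because the replicate numbers only name libraries. Unknown depth, windows of 40 kb and 249 libraries limit all of these values.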
